A study of Mus musculus with 16 samples.

Results

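The midbrain-hindbrain organizer genes are the transcription factors and the secreted signal that place and maintain the boundary between the embryonic midbrain and hindbrain. The list held 10 genes, En1, En2, Pax2, Pax5, Pax8, Fgf8, Gbx2, Otx1, Otx2 and Lmx1b, and was matched by gene symbol to the platform annotation of the array. The rule uses no measured value. Of the 10 genes, 9 were measured, by 12 probe sets, among 18193 genes in all. Pax2 was not analysed here, because no probe set was matched to it. Where a gene had several probe sets, the one with the highest mean over the 16 arrays stood for the gene, and the other was read beside it.

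At this boundary, Otx2 in the forebrain and midbrain and Gbx2 in the anterior hindbrain repress each other, and the line where they meet sets the position of the organizer. Cells along that line express Pax2, Lmx1b, Wnt1 and the engrailed genes En1 and En2, and then secrete Fgf8, which patterns the tectum in front and the cerebellum behind. The factors maintain each other, and loss of Fgf8, Wnt1 or En1 removes much of the midbrain and cerebellum in the mouse.

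The samples were total RNA of mouse embryo heads at 3 stages: 6 samples at embryonic day 9.5 (E9.5), 4 at E11.5 and 6 at E13.5, with 1 array each, called biological replicates by the submitters. The tissue is the head in the sample titles and the brain in the title of the series. Strain, sex and any pooling of embryos were not stated. All RNA was taken with one extraction kit for lipid-rich tissue. The E9.5 and E11.5 RNA was labelled by an Affymetrix kit for in vitro transcription, that of E13.5 with the Ambion MessageAmp II-Biotin Enhanced kit, so that stage and labelling kit cannot be told apart in the comparisons of E13.5 with E11.5 and with E9.5. In whole heads, fewer cells of a type and less RNA per cell also cannot be told apart.

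Values are log2 of the normalised probe set intensity. An error after a difference is the standard error from limma, and an error after a mean is the SD over arrays. On every array the lower quartile of all probe sets was an intensity of 12 and the median 32, and no detection call was used. All 12 neuron genes listed rose from E9.5 to E11.5, and their summed intensity went from between 1263 and 2710 at E9.5 to between 9986 and 11444 at E11.5. The neural progenitor list summed to between 8392 and 10877 at E9.5 and to between 14874 and 15579 at E11.5. Of its 12 genes 7 were higher, 3 lower and 2 not called in that step, so the sum does not stand for a common rise. Among all genes, 31.0% were higher and 26.9% lower. Control transcripts added before labelling averaged 8.12 ± 0.25 at E9.5, 5.67 ± 0.15 at E11.5 and 5.40 ± 0.11 at E13.5 on the log2 scale (SD over arrays, 24 probe sets). Their part in the results was not tested. Samples 13 and 15 of E9.5 differed from the rest of their stage. They had the lowest summed neuron intensity of the stage, 1263 and 1320, and the highest summed surface ectoderm intensity, 1921 and 1867. Their control transcripts were also the highest of the stage, at 8.50 and 8.34. The cause of these differences was not tested. Some results of the step from E9.5 to E11.5 are therefore also given without them.

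From E9.5 to E11.5 all 9 measured organizer genes fell in their main probe set, by a median of 0.81 on the log2 scale, where the median of all genes was 0.02. The measured falls ran from 1.50-fold for Pax8 to 3.21-fold for En1, whose E11.5 intensities lay about the lower quartile of the arrays, so that its fold is limited by the low signal. Of all genes, 57.8% were called in this comparison, 31.0% higher and 26.9% lower, at an adjusted p under 0.05 in limma. For 7 of the 9 genes no E11.5 array overlapped an E9.5 array, against 37.7% of all genes. Gbx2 and Lmx1b were the genes with overlap. Of the 3 genes with a second, dimmer probe set, Lmx1b was higher in it, and Pax5 and Pax8 were not called in it. Without the E9.5 samples 13 and 15 all 9 genes were again called lower.

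**Figure D1:**
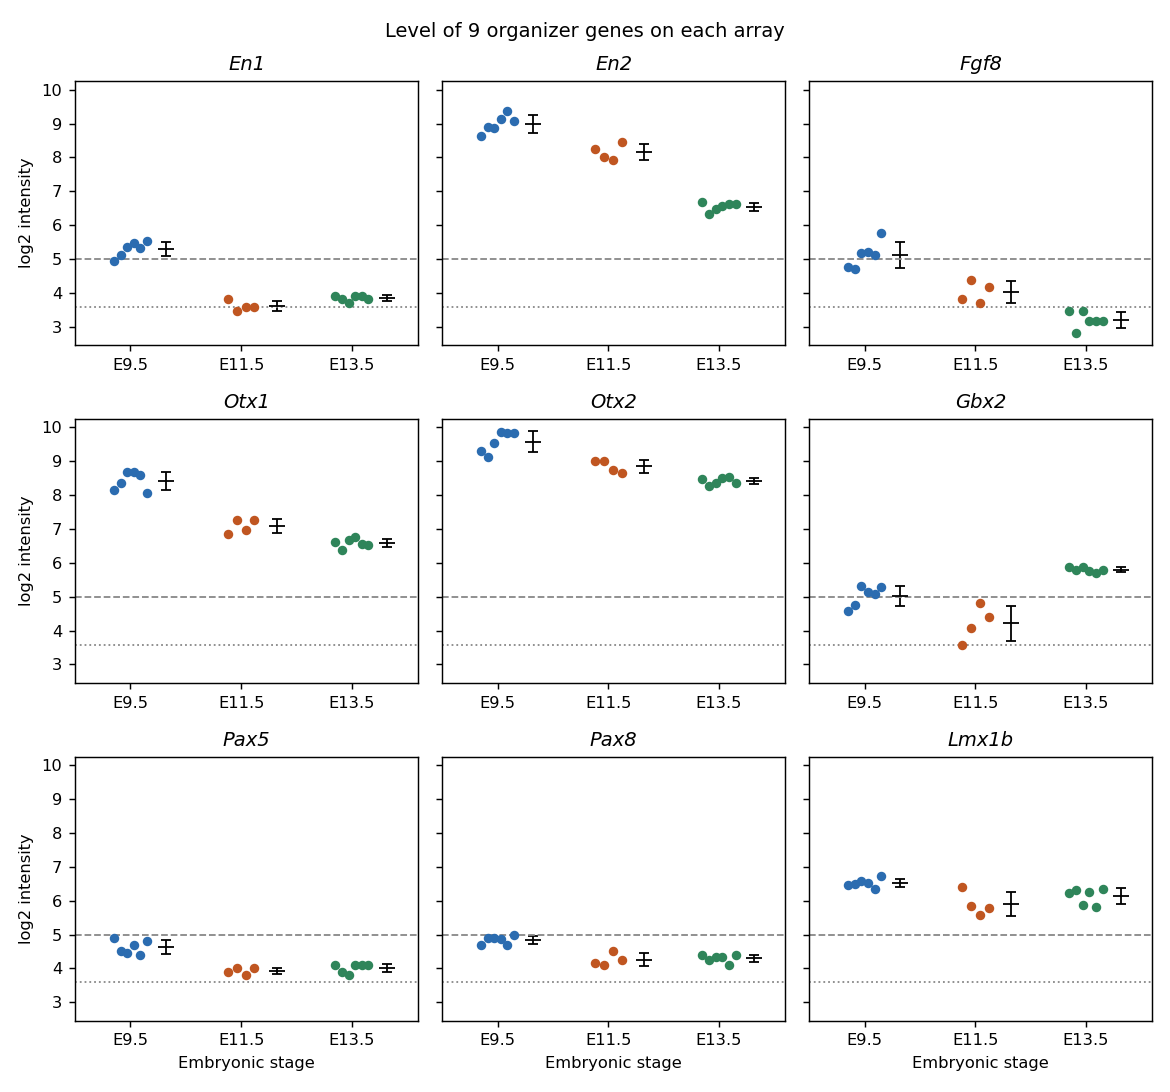
Log2 intensity of the main probe set of each of the 9 measured organizer genes on each array, by stage (6, 4 and 6 arrays). Black bars are the mean ± SD, and the dotted and dashed lines mark the array's lower quartile, 12, and median, 32. En2, Otx1, Otx2 and Fgf8 step down at each stage, En1, Pax5 and Pax8 step down to E11.5, and Gbx2 is lowest at E11.5 and highest at E13.5.

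The list parted between E11.5 and E13.5. En2, Fgf8, Otx1 and Otx2 fell further, Gbx2 rose, and En1, Pax5, Pax8 and Lmx1b were not called. The 5 called genes of 9 stand beside 54.9% of all genes called, 27.9% higher and 27.0% lower, so the count alone does not set the list apart. The median of the 9 differences was 0.04. The groups did not overlap for the same 5 genes, and 43.0% of all genes did not overlap.

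Over the whole interval from E9.5 to E13.5, 8 genes were lower and Gbx2 was higher, and none of the 9 had an overlap between the arrays of these stages. The median difference was −1.16, against 0.0068 for all genes. Of all genes, 61.8% were called, 32.7% higher and 29.1% lower, and 44.8% did not overlap. The 3 comparisons share their stage groups, so they are not independent of each other.

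**Figure D2:**
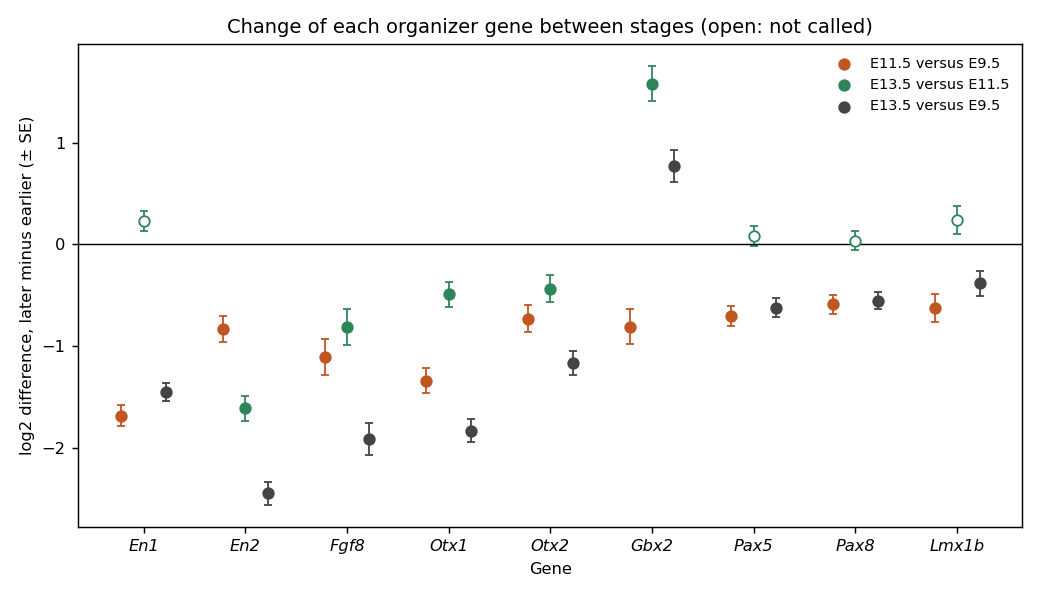
Log2 difference of each of the 9 organizer genes in the 3 stage comparisons, later minus earlier stage, with the standard error from limma; open circles were not called at an adjusted p under 0.05. All 9 points lie below 0 for E11.5 against E9.5, and Gbx2 is the gene above 0 among the called ones for E13.5 against E11.5 and against E9.5.

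Of the measured genes that had an entry, Pax5 and Pax8, not called between E11.5 and E13.5, are not shown here. Promoters are shown for Otx2, lower in that step, Gbx2, higher in it, and En1 and Lmx1b, also not called. Each is the 250 bases before a RefSeq transcription start on GRCm38.p6, written 5′ to 3′ on the strand of the gene. En1 lies on the plus strand (chr1:120602237-120602486), and Gbx2 (chr1:89931177-89931426), Lmx1b (chr2:33641099-33641348) and the Otx2 start shown (chr14:48665110-48665359) lie on the minus strand. Capitals mark matches on either strand to TAATTA, a core bound by many homeodomain proteins, to GGATTA, the core of Otx proteins, and to GGAAGT, the core of ETS factors that act below FGF receptors.
En1: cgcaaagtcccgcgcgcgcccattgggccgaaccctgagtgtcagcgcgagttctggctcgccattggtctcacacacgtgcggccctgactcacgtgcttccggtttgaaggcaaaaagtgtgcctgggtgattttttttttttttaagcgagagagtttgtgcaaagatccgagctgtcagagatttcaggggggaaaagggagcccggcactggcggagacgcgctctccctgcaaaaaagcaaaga
Gbx2: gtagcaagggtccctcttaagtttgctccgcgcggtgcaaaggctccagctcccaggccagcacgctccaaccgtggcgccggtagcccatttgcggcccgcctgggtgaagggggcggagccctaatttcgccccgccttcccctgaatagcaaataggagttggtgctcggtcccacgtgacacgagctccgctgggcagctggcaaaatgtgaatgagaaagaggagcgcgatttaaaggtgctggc
Lmx1b: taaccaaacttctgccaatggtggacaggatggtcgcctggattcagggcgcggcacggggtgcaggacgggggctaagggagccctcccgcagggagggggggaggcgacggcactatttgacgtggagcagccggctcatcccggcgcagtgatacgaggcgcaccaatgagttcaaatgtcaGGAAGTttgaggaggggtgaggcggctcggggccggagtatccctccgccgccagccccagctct
Otx2: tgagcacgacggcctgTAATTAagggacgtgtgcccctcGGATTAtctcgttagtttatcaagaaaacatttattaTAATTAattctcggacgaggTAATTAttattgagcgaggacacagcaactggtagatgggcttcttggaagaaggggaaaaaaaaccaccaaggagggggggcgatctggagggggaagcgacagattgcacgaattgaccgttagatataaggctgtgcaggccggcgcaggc
The Otx2 window held TAATTA at 234, 174 and 154 bases before the start and GGATTA at 211 bases before it. Otx2 had several starts, and the window shown held the most matches among them. Of its other windows, 1 held TAATTA once and the rest held none of the 3 motifs. The Lmx1b window held GGAAGT at 65 bases before the start, and the En1 and Gbx2 windows held none of the 3 motifs. The motifs do not overlap each other in these windows. Of 32851 RefSeq windows of this length, 4.84% held TAATTA, 6.25% GGATTA and 19.7% GGAAGT. Across the 12 windows of the 7 list genes with an entry, TAATTA was in 2 and GGATTA in 1, all of Otx2, and GGAAGT was in 3, of Pax2, Pax8 and Lmx1b. A match is a description of the letters and not a bound site. En2, Fgf8 and Otx1 had no entry in the table.

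Otx2, the homeodomain factor required for forebrain and midbrain, had a log2 intensity of 9.11 at the lowest, 9.69 at the median and 9.86 at the highest of the 6 E9.5 arrays. At E11.5 samples 33, 36, 51 and 52 read 9.01, 9.02, 8.73 and 8.65. The E13.5 arrays ranged from 8.27 to 8.54, with a median of 8.42. Otx2 stepped down at each stage, and the stages did not overlap in either step. The difference was −0.73 ± 0.13 (SE; 1.66-fold, adjusted p = 8.72e-05, limma) to E11.5 and −0.43 ± 0.13 (1.35-fold, adjusted p = 0.00909) from there to E13.5. Over both steps Otx2 fell 2.24-fold, by 1.16 ± 0.12 on the log2 scale (adjusted p = 2.88e-08). Its E9.5 level was lowest in samples 13 and 15, and without them the first difference was −0.92.

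Otx1, the paralogue of Otx2, which is expressed in the forebrain and midbrain from a later start, read 8.06, 8.48 and 8.69 at the lowest, median and highest E9.5 array. At E11.5 samples 33, 36, 51 and 52 read 6.86, 7.26, 6.97 and 7.26, and the E13.5 arrays ran from 6.39 to 6.75 around a median of 6.60. No array of one stage reached into another stage. The first fall was 1.34 ± 0.13 on the log2 scale (2.53-fold, adjusted p = 1.88e-08, limma) and the second 0.49 ± 0.13 (1.41-fold, adjusted p = 0.00246). Between E9.5 and E13.5 Otx1 was 3.55-fold lower (adjusted p = 1.13e-11).

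Within an array the difference Otx1 minus Otx2 removes whatever the 2 probe sets share on that array. Its mean went from −1.16 ± 0.36 (SD, n = 6) at E9.5 to −1.77 ± 0.31 (SD, n = 4) at E11.5 and −1.83 ± 0.10 (SD, n = 6) at E13.5. Its size is not a ratio of transcripts, since it compares different probes, and only its change between stages was tested. Otx1 fell further than Otx2 between E9.5 and E13.5, by 0.67 (exact permutation test over arrays, two-sided p = 0.00649, 0.013 after adjustment over 12 tests). Stage and labelling kit cannot be told apart in that comparison. A kit effect that the 2 probe sets do not share would remain in the difference. The change to E11.5 was −0.61 and did not pass (exact permutation p = 0.0333, adjusted p = 0.0571). Without E9.5 sample 24 it was −0.73 and passed (exact permutation, adjusted p = 0.0136). Between E11.5 and E13.5 the change was −0.06 (exact permutation p = 0.676, adjusted p = 0.81).

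Gbx2, the homeodomain factor of the anterior hindbrain, went the other way at the end. Its log2 intensity was 4.58, 5.11 and 5.32 at the lowest, median and highest E9.5 array. The E11.5 samples 33, 36, 51 and 52 read 3.58, 4.09, 4.81 and 4.39, the widest spread of any organizer gene within a stage (SD 0.51). The 6 E13.5 arrays lay close together, from 5.70 to 5.88 with a median of 5.78. All E13.5 arrays were above every earlier array, whereas E11.5 sample 51 lay inside the E9.5 range. Gbx2 fell to E11.5 by 0.81 ± 0.17 on the log2 scale (1.75-fold, adjusted p = 0.000476, limma) and then rose by 1.58 ± 0.17 (2.99-fold, adjusted p = 1.71e-07). At E13.5 it was 1.71-fold above E9.5 (0.77 ± 0.16, adjusted p = 0.00021). Gbx2 is also expressed in the forebrain, in the thalamus and the basal telencephalon, which the heads contained.

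The difference Otx2 minus Gbx2 followed from this. Its mean was 4.56 ± 0.22 (SD, n = 6) at E9.5, 4.64 ± 0.67 (SD, n = 4) at E11.5 and 2.62 ± 0.14 (SD, n = 6) at E13.5. The change to E11.5 was 0.08 (exact permutation p = 0.81, adjusted p = 0.81), with a range from −0.19 to 0.32 on leaving out single arrays. From E11.5 to E13.5 the difference dropped by 2.01 without overlap (exact permutation p = 0.00476, adjusted p = 0.0114), and from E9.5 to E13.5 by 1.93 without overlap (exact permutation p = 0.00216, adjusted p = 0.0114). These are the smallest p-values that 4 against 6 and 6 against 6 arrays can give. In both comparisons with E13.5, stage and labelling kit cannot be told apart. Here too, a kit effect that the 2 probe sets do not share would remain in the difference.

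**Figure D3:**
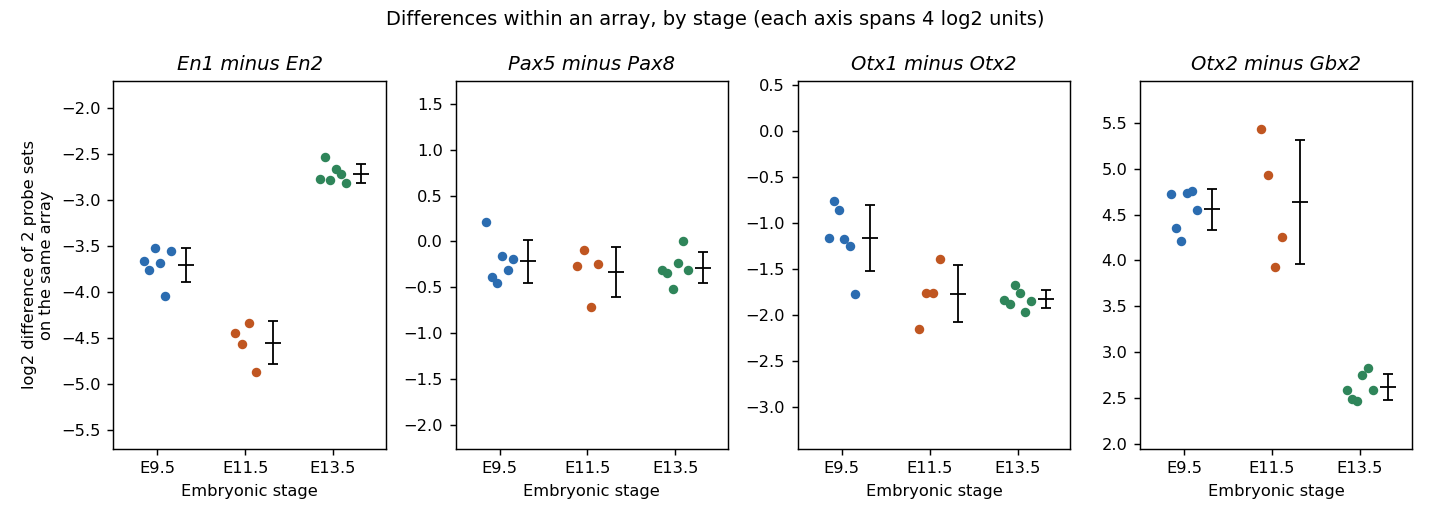
Within-array log2 difference of 4 gene pairs on each array, by stage, with the mean ± SD in black; the position on the axis compares different probe sets and only shifts between stages can be read. Otx2 minus Gbx2 drops at E13.5, En1 minus En2 is lowest at E11.5 and highest at E13.5 (with En1 about the lower quartile at both stages), and Pax5 minus Pax8 overlaps in all stages.

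Fgf8, the secreted signal of the organizer, fell at each step. The E9.5 arrays read 4.70, 5.15 and 5.75 at the lowest, median and highest. At E11.5 samples 33, 36, 51 and 52 read 3.81, 4.39, 3.70 and 4.17, and at E13.5 the arrays ran from 2.81 to 3.46 with a median of 3.17. No stage overlapped another, and at E13.5 every Fgf8 intensity, 7 to 11, was under the lower quartile of its array. The differences were −1.10 ± 0.18 (2.15-fold, adjusted p = 2.17e-05, limma), −0.81 ± 0.18 (1.76-fold, adjusted p = 0.000619) and, over both steps, −1.91 ± 0.16 (3.77-fold, adjusted p = 1.21e-09). The folds against E13.5 are ratios of measured intensities and not estimates of transcript number. The 2 lowest E9.5 arrays were samples 13 and 15, and without them the first difference was −1.30. Fgf8 is also made in the facial ectoderm and the forebrain midline of the head.

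The engrailed genes, homeodomain repressors needed for tectum and cerebellum, both fell from E9.5 to E11.5. En2 read 8.62, 8.98 and 9.36 at the lowest, median and highest E9.5 array. Samples 33, 36, 51 and 52 of E11.5 read 8.25, 8.02, 7.91 and 8.46, and the E13.5 arrays lay between 6.34 and 6.67 with a median of 6.59. Each later stage was wholly below the earlier one. En2 fell 1.78-fold (−0.83 ± 0.13, adjusted p = 9.96e-06, limma) and then 3.06-fold (−1.61 ± 0.13, adjusted p = 1.3e-09). Its fall of 5.45-fold from E9.5 to E13.5 (−2.45 ± 0.11, adjusted p = 1.22e-13) was the largest measured among the 9 genes, but Fgf8 and En1 were near or under the lower quartile at E13.5, which limits their folds.

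En1 fell in the first step. Its E9.5 arrays read 4.95, 5.34 and 5.52 at the lowest, median and highest. At E11.5 samples 33, 36, 51 and 52 read 3.81, 3.46, 3.58 and 3.58, and at E13.5 the arrays ran from 3.70 to 3.91 around a median of 3.86. The E11.5 intensities, 11 to 14 (median 12), lay about the lower quartile of the array. The first difference was −1.68 ± 0.10 (3.21-fold, adjusted p = 3.58e-11, limma) and that between E9.5 and E13.5 was −1.45 ± 0.09 (2.74-fold, adjusted p = 1.55e-11). Between E11.5 and E13.5 the difference was 0.23 ± 0.10 and was not called (adjusted p = 0.0634). It was called higher without the E9.5 samples 13 and 15, which enter only through the shared spread (adjusted p = 0.0169), and without E11.5 sample 33, at 0.30 (adjusted p = 0.0271).

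The En1 minus En2 difference averaged −3.70 ± 0.19 (SD, n = 6) at E9.5, −4.55 ± 0.23 (SD, n = 4) at E11.5 and −2.71 ± 0.10 (SD, n = 6) at E13.5. It shifted by −0.85 to E11.5, when En1 fell further than En2 (exact permutation p = 0.00476, adjusted p = 0.0114). It shifted by 1.84 from E11.5 to E13.5 and by 0.99 across both steps, and none of the 3 stages overlapped. The En1 intensities were 11 to 14 at E11.5 and 13 to 15 at E13.5, about the lower quartile of 12. A further fall of En1 may therefore not have been fully measurable. Fgf8 was still called lower at E13.5, with intensities of 7 to 11, but in another probe set. How low the En1 probe set can read was not tested. Because of the low En1 signal, the 2 later shifts are not read as a comparison of the 2 genes, and their p-values are not given. Without the E9.5 samples 13 and 15 the first shift was again −0.85, but 4 arrays against 4 gave an adjusted p of 0.0571 (exact permutation).

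The paired-box genes Pax5 and Pax8 follow Pax2 at the boundary and share its DNA-binding domain. Pax5 read 4.39, 4.61 and 4.91 at the lowest, median and highest E9.5 array, 3.91, 4.00, 3.81 and 4.00 in E11.5 samples 33, 36, 51 and 52, and from 3.81 to 4.09 (median 4.09) at E13.5. Pax8 read 4.70, 4.88 and 5.0 at E9.5, 4.17, 4.09, 4.52 and 4.25 in the same order at E11.5, and from 4.09 to 4.39 (median 4.32) at E13.5. For both genes the E9.5 arrays lay above all others, and the E11.5 and E13.5 arrays overlapped. The Pax5 intensities of 14 to 17 at E11.5 and E13.5 were close to the lower quartile of 12, so a further fall of Pax5 may not have been measurable. Pax5 fell by 0.70 ± 0.10 to E11.5 (1.63-fold, adjusted p = 5.14e-06, limma) and Pax8 by 0.59 ± 0.09 (1.50-fold, adjusted p = 1.89e-05). The later step, E11.5 to E13.5, was 0.08 ± 0.10 for Pax5 (adjusted p = 0.513) and 0.04 ± 0.09 for Pax8 (adjusted p = 0.763). Against E9.5, E13.5 was lower by 0.62 ± 0.09 for Pax5 (adjusted p = 4.02e-06) and by 0.55 ± 0.08 for Pax8 (adjusted p = 7.36e-06).

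Pax5 minus Pax8 changed by −0.11 to E11.5 (p = 0.51, adjusted p = 0.764, exact permutation), by 0.05 from E11.5 to E13.5 (p = 0.767, adjusted p = 0.81, exact permutation) and over both steps by −0.07 (p = 0.584, adjusted p = 0.779, exact permutation). The p-values that missed the threshold do not show that the 2 genes moved alike. Pax5 was highest of the E9.5 arrays in sample 13, unlike En1, En2, Fgf8, Gbx2 and Otx2, for which sample 13 was among the lowest. The first difference without samples 13 and 15 was −0.66 for Pax5 and −0.61 for Pax8.

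Both Pax genes had a second, dimmer probe set, which did not repeat the fall from E9.5 to E11.5. For Pax5 it differed by −0.05 to E11.5 (adjusted p = 0.644 over all probe sets, limma) and by −0.25 between E9.5 and E13.5 (adjusted p = 0.0127, lower). Among all 34945 probe sets that name a single gene, 55.2% were called between E9.5 and E11.5, 54.3% between E11.5 and E13.5, and 61.3% between E9.5 and E13.5. The second Pax8 probe set had a mean below the array's lower quartile at all stages, and its differences of 0.26, −0.09 and 0.17 were not called. The statements on the fall of Pax5 and Pax8 to E11.5 therefore rest on 1 probe set each. So does the statement on Pax8 between E9.5 and E13.5.

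Lmx1b, a LIM-homeodomain factor that precedes Fgf8 at the boundary and later serves dopaminergic and serotonergic neurons, had the least clear pattern. Its main probe set read 6.36, 6.50 and 6.74 at the lowest, median and highest E9.5 array. The E11.5 samples 33, 36, 51 and 52 read 6.41, 5.83, 5.58 and 5.78, and the E13.5 arrays ran from 5.81 to 6.34 with a median of 6.25. Sample 33 lay inside the E9.5 range, and the other E11.5 samples lay below it. The first difference was −0.62 ± 0.14 (1.54-fold, adjusted p = 0.00065, limma), the second 0.24 ± 0.14 (adjusted p = 0.153, not called) and that from E9.5 to E13.5 −0.38 ± 0.12 (1.30-fold, adjusted p = 0.0108). Without E11.5 sample 33 the second difference was 0.41 and was called higher (adjusted p = 0.00825). With the prefix of the E13.5 sample names (B62 or B63) as a random block, the difference from E9.5 to E13.5 was no longer called (adjusted p = 0.101).

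The second Lmx1b probe set ran against the first. It rose by 0.39 ± 0.09 to E11.5 (adjusted p = 0.0012, limma) and fell by 0.58 ± 0.09 from there to E13.5 (adjusted p = 1.82e-05), with no overlap in either step. Its intensities, 11 to 21 over all arrays, were below the array median of 32, and those of the main probe set, 48 to 107, above it. The direction of Lmx1b between E9.5 and E11.5 therefore depends on the probe set and is not given as a property of the gene.

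**Figure D4:**
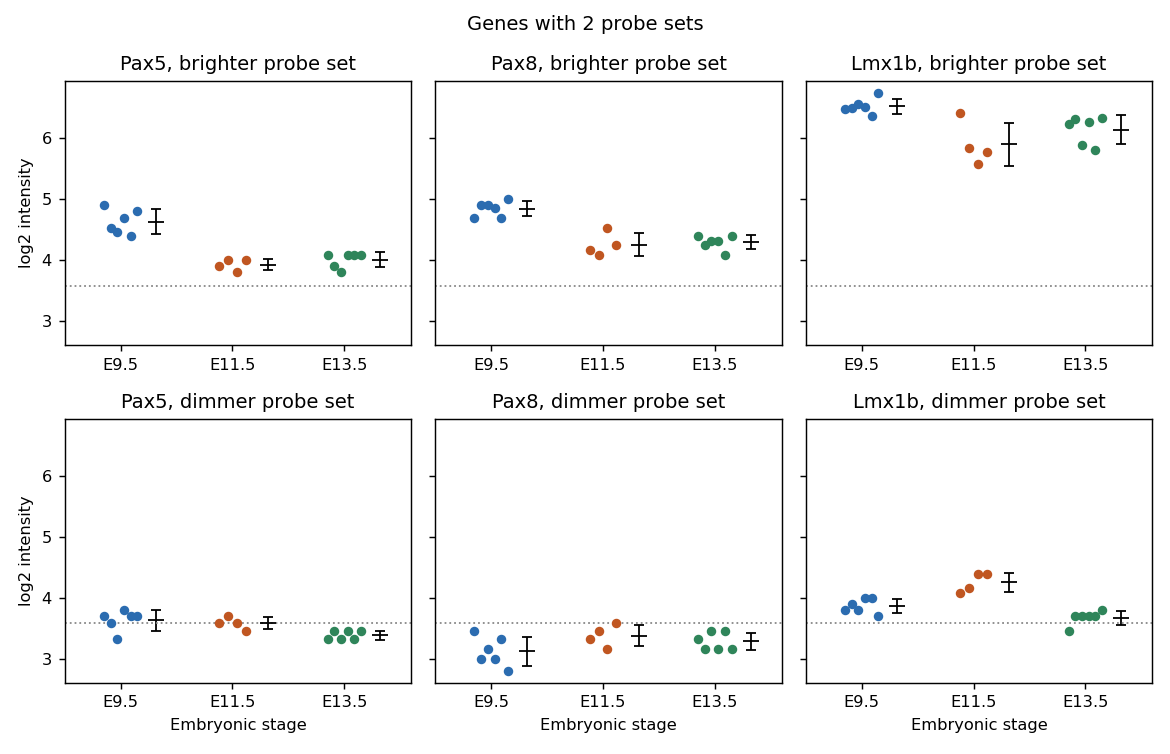
Log2 intensity on each array of the brighter and dimmer probe sets of Pax5, Pax8 and Lmx1b, by stage, with mean ± SD in black and the array's lower quartile, 12, as a dotted line. The dimmer Pax5 and Pax8 probe sets stay near or under the lower quartile, and the 2 Lmx1b probe sets move in opposite directions from E9.5 to E11.5.

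The partners of the organizer genes were read next. A list of 14 such genes, all measured, held 8 lower, 2 higher and 4 not called from E9.5 to E11.5, with a median of −0.37. The counts of this and the later lists stand beside the shares of all genes. From E9.5 to E11.5 these were 31.0% higher and 26.9% lower, and from E11.5 to E13.5 27.9% higher and 27.0% lower. From E9.5 to E13.5 they were 32.7% higher and 29.1% lower. No list was tested against these shares. Sp5, a zinc-finger target of Wnt signalling, fell by 1.71 ± 0.12 on the log2 scale (adjusted p = 3.6e-10, limma), and Fgf15 and Fgf18, secreted FGFs, fell by 1.36 ± 0.11 and 1.30 ± 0.17. Cnpy1, a modulator of FGF signalling known from the fish boundary, fell by 1.09 ± 0.20. Pax3, a paired-box gene of the dorsal neural tube, rose by 0.45 ± 0.12, and the co-repressor gene Tle4 rose by 0.38 ± 0.14, but 1 of the other probe sets of each was lower. From E11.5 to E13.5 the list held 6 lower, 4 higher and 4 not called, with a median of −0.33.

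Sp8, a zinc-finger factor of the partner list, fell by 2.50 ± 0.09 between E11.5 and E13.5 (adjusted p = 1.2e-14, limma). In the same step Fgf17, which is expressed in a wider band than Fgf8, fell by 1.56 ± 0.18, while Fgf18 rose by 1.30 ± 0.17 and the homeobox gene Meis2 by 0.94 ± 0.08. Of the other Meis2 probe sets 2 were higher and 1 lower. Over the whole interval 8 partners were lower, 2 higher and 4 not called, with a median of −0.82. Wnt1, the other secreted signal of the boundary, fell 2.45-fold over it (−1.29 ± 0.13, adjusted p = 2.61e-08, limma), by 0.83 ± 0.15 in the first step and 0.46 ± 0.15 in the second. Sp8, Fgf17 and Cnpy1 were lower by 2.65 ± 0.08, 2.03 ± 0.16 and 1.94 ± 0.18.

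Genes that receive or answer FGF signals changed in both directions in the first step. Of 13 measured receptors and response genes, 7 were higher, 4 lower and 2 not called from E9.5 to E11.5, with a median of 0.28. Fgfr3, a receptor, rose by 0.87 ± 0.09 (adjusted p = 7.99e-08, limma). Spred1, an inhibitor of the Ras pathway, rose by 0.63 ± 0.11, although 3 of its other probe sets were lower. Il17rd, an FGF antagonist also named Sef, fell by 0.70 ± 0.09, and Flrt3, an FGF-receptor partner, by 0.59 ± 0.11.

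From E11.5 to E13.5, 7 of the 13 were lower, 1 higher and 5 not called, with a median of −0.25. Spred1 fell by 1.56 ± 0.11, Spry2, a feedback inhibitor, by 0.84 ± 0.12, Dusp6, the ERK phosphatase, by 0.79 ± 0.09 and Il17rd by 0.56 ± 0.09. Of the other Spred1 probe sets 3 were lower and 1 higher in this step. Fgfr2 rose by 0.21 ± 0.08, but its 2 other probe sets were lower. Between E9.5 and E13.5, 8 were lower, 4 higher and 1 not called, with a median of −0.36 and the largest fall in Il17rd, 1.26 ± 0.08. These genes answer FGFs throughout the head, and their levels are not a measure of Fgf8 at the boundary alone.

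**Figure D5:**
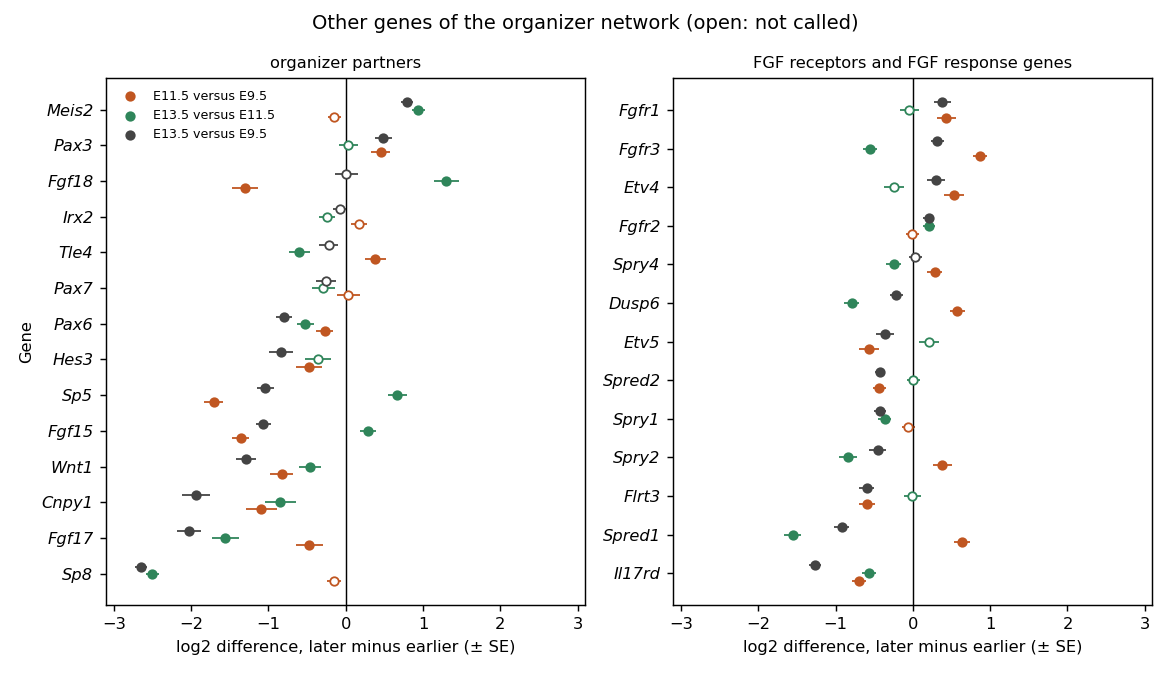
Log2 difference (later minus earlier stage) of the listed organizer partners and of FGF receptors and response genes in the 3 comparisons, with standard errors from limma; open circles were not called. Of the partners, 8 of 14 were called lower from E9.5 to E11.5; of the FGF genes, 7 of 13 were called higher in that step and 7 of 13 lower from E11.5 to E13.5.

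Several organizer genes are expressed elsewhere in the head, and lists for those tissues were read beside them. Pax8 also marks the otic vesicle and the thyroid. Of 10 otic genes, 3 were higher, 1 lower and 6 not called from E9.5 to E11.5, with sums from 615 to 758 at E9.5 and from 810 to 1009 at E11.5. The 5 thyroid genes summed to between 98 and 131 on every array, with 1 lower and 4 not called in that step. Otx2 also marks the retinal pigment epithelium. Of 12 eye genes, 5 were higher and 5 lower from E9.5 to E11.5, in no common direction. The pigment cell genes Dct and Pmel rose by 1.53 and 1.70, and the eye field genes Six6 and Rax fell by 2.02 and 1.12. Mitf, the pigment cell regulator, fell by 0.82, but its other probe set was higher, and Tyrp1 and Rlbp1 were not called. Lmx1b also marks periocular mesenchyme, and of 10 facial and periocular mesenchyme genes 5 were higher and 5 not called in that step, with sums from 1680 to 2191 at E9.5 and from 2932 to 3571 at E11.5. Of 11 surface ectoderm genes 5 were lower and 6 not called to E11.5, and 10 were higher and 1 lower from there to E13.5. Of 6 blood genes 3 were higher and 1 lower to E11.5, and 5 were lower from there to E13.5. The part of these tissues in the results was not tested.

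Genes with the most similar course over the 16 arrays were listed for each organizer gene by Pearson's r. With 3 stages the coefficient mostly reflects the 3 stage means, and it is given as a description. En1 was closest to Strap, Nolc1 and Krr1 (r = 0.989, 0.987 and 0.984) and En2 to Tmem47, Brca1 and Kctd20 (0.994, 0.988 and 0.988). Fgf8 was closest to Nars2, Adgra3 and Homez (0.979, 0.979 and 0.976). Otx1 was closest to Cecr2, Bend3 and Msh6 (0.984, 0.984 and 0.98) and Otx2 to Cct8, Pik3r4 and AU020206 (0.977, 0.976 and 0.976). Gbx2, the gene with the dip at E11.5, was closest to Cyth2, Ccnd2 and Hnrnpa1 (0.963, 0.963 and 0.961). Pax5 was closest to Las1l, Frrs1 and Zfp51 (0.955, 0.954 and 0.948), and Pax8 to Tada3, Kcng1 and Fcrl1 (0.945, 0.941 and 0.94). Lmx1b had the lowest coefficients, 0.889, 0.887 and 0.875 with Irx4, Gpr89 and Dmap1. No organizer gene was among the 3 closest genes of another.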

How the data were processed

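Total RNA of 16 samples of mouse embryo head (6 at E9.5, 4 at E11.5, 6 at E13.5) was measured on 1-colour Affymetrix arrays. The deposited values are probe set intensities on a linear scale in whole numbers, summarised by the authors with RMA (named in the submitters' processing notes, without a version). Of 45101 probe sets, 34945 name 1 gene in GEO's platform annotation, 932 several and 9160 none; 64 are controls. Each gene was read from the probe set with the highest mean, which gave 18193 genes.

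Log2 intensities of all 16 arrays were fitted in 1 stage model with limma 3.58.1 in R 4.3.3, with Benjamini-Hochberg adjustment over all genes of a comparison and calls at an adjusted p under 0.05. Differences between paired genes within an array were compared by exact permutation tests over arrays (scipy 1.17.1), adjusted over 12 tests; pairs with Pax2 were not tested. The number of arrays limits the precision. The fit was tested on simulated data first. Motifs were searched on both strands of the 250 bases before each RefSeq start, leaving out the bases after it. Alternatives were a filter on dim probe sets, other probe set rules, other scalings, another variance model, array weights, the E13.5 name prefix as a block, only the stages compared, and single arrays or the E9.5 samples 13 and 15 left out. The text names all list genes, up to 4 called genes with the largest change of each other list, up to 2 against its median, and the 3 closest genes by correlation. The genes and lists were chosen with earlier results of these data known.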

Additional observations from a re-analysis of the deposited data

Results flagged for a closer look

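A single sample stood far from its group in 1 of 48 groups of arrays (12 probe sets, 3 stages, and the 4 pair differences), where chance alone gives about 1 in 20. In the dimmer Lmx1b probe set the E13.5 sample B62E6K had a log2 intensity of 3.46 and the next lowest array 3.70, a gap of 0.693 of the range of the 6 arrays.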

How the results depend on the processing

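The counts of organizer genes called lower stayed at 9, 4 and 8 on leaving out any single array. They were 6, 5 and 6 with the second-brightest probe set, a rule under which a gene with 1 probe set kept it. The 6 genes lower from E9.5 to E11.5 were all genes with 1 probe set. No gene with a second probe set was called lower in it in that step. Averaging the probe sets of a gene gave 8, 4 and 8, and Lmx1b then lost its call from E9.5 to E11.5 (−0.12, adjusted p = 0.184, limma). With the E13.5 name prefix as a block the last count was 7. The count called higher between E11.5 and E13.5 ranged from 1 to 3 in those fits, and was 2 with only the 2 stages compared, with array weights and without the E9.5 samples 13 and 15, in each case by the addition of En1. With the second-brightest probe set 1 gene was higher from E9.5 to E11.5, Lmx1b at 0.39; with that probe set Pax8 was at 0.26, −0.092 and 0.17 in the 3 comparisons, and Lmx1b at −0.58 and Pax5 at −0.19 between E11.5 and E13.5. With the mean of all probe sets Lmx1b was at −0.17, Pax5 at −0.055 and Pax8 at −0.028 between E11.5 and E13.5. Pax8 ranged from −0.020 to 0.13 there on leaving out single arrays. Of 270 single-gene values under the other settings 254 kept direction and call, and of 432 with 1 array left out 428 did. Not all of these settings could change a value. Every array had the same median, so median centring left the differences as they were. Genes with 1 probe set kept it under the other probe set rules. The 254 of 270 are therefore not a count of independent checks. Pax5 minus Pax8 changed by −0.027 with the mean of all probe sets and by −0.099 with the second-brightest between E11.5 and E13.5, and on leaving out single arrays ranged from −0.20 to 0.014, −0.084 to 0.13 and −0.13 to 0.015 in the 3 comparisons. Otx2 minus Gbx2 ranged from −0.19 to 0.32 and Otx1 minus Otx2 from −0.73 to −0.48 from E9.5 to E11.5, and Otx1 minus Otx2 from −0.19 to 0.067 from E11.5 to E13.5. En1 minus En2 was −0.85 without the E9.5 samples 13 and 15 (exact permutation, adjusted p = 0.0571). Beyond what the change of probe set itself shows, the cause of these shifts was not tested. No paired analysis was possible because the stages share no replicate numbers. Signal over background limits Fgf8, En1 and the main Pax5 probe set from E11.5 on, Gbx2 in E11.5 sample 33, and the dimmer probe sets of Pax5, Pax8 and Lmx1b, whose intensities lay near or under the lower quartile of the arrays.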

Other observations

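Of 10 genes of the rhombic lip and cerebellar anlage, 9 were higher and 1, Meis1, was not called from E9.5 to E11.5, with a median of 0.80. Lhx1 rose by 3.32 ± 0.13 and Lhx9 by 2.75 ± 0.19 on the log2 scale. Atoh1, which specifies granule cell precursors, rose by 1.06 ± 0.15 and then fell by 2.04 ± 0.15 to E13.5. From E11.5 to E13.5 the same list held 2 higher, 4 lower and 4 not called, and from E9.5 to E13.5 6 higher, 2 lower and 2 not called. These genes are also expressed elsewhere in the head. Of 8 midbrain neuron genes 4 were higher, 1 lower and 3 not called from E9.5 to E11.5, with Gata2 up by 1.97 ± 0.11 and Tal2, a midbrain GABAergic gene, down by 1.05 ± 0.12. From E11.5 to E13.5 2 of the 8 were higher and 3 lower.

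The midbrain dopaminergic list, for neurons that arise beside the organizer, held among its 13 genes 7 higher, 3 lower and 3 not called from E9.5 to E11.5, and 3 higher, 6 lower and 4 not called from E11.5 to E13.5. Nr4a2, which is required for these neurons, rose by 1.33 ± 0.10 in the first step, with 2 of its other 5 probe sets higher and 1 lower. In the second step its main probe set was lower by 0.69 ± 0.10, but 3 of the others were higher and 2 lower, so no direction is given. Foxa2, a floor plate factor, fell in both steps, by 0.81 ± 0.12 and 0.98 ± 0.12. Of 6 measured serotonergic genes 3 were higher, 1 lower and 2 not called in the first step, and 1 higher, 2 lower and 3 not called in the second.

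The antisense gene at the Otx2 locus, Otx2os1, was looked at after its values were seen. It differed by −0.60 ± 0.15 from E9.5 to E11.5 (adjusted p = 0.00145, limma), by −0.11 ± 0.15 from E11.5 to E13.5 (adjusted p = 0.559) and by −0.71 ± 0.13 over both steps (adjusted p = 7.71e-05).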
